A study of Mus musculus with 6 samples.

Results

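The small leucine-rich proteoglycans are secreted matrix proteins, and 8 of their genes were followed here in kidney fibroblasts kept alone or beneath T helper 17 (Th17) cells, which are T cells that make interleukin-17. The members Dcn, Bgn, Lum, Fmod, Ogn, Prelp, Aspn and Podn were chosen by name as family genes, with earlier results of these data known. They are 8 of the 34745 genes in the count table. All 8 were among the 13088 genes with enough counts to be tested. The cells were wild-type (WT) primary mouse renal fibroblasts grown out of digested kidney. In both groups they came from the same kind of culture, and no gene was altered in either. In the coculture they were given 6 h to attach, and a transwell insert with 0.4 μm pores and induced Th17 cells inside was then set over them for 24 h, so that the cells shared medium but did not mix. The Th17 cells had been made from CD4+ T cells with antibodies to CD3 and CD28, interleukins 1β, 6 and 23, and an antibody to interferon-γ. RNA was taken from the fibroblasts of the lower chamber only. There were 3 libraries of fibroblasts alone and 3 libraries of cocultured fibroblasts. The sources used here do not say whether an empty insert stood over the lone cells, or whether replicate libraries were made from different cultures or animals. The errors and p-values therefore measure the spread among these libraries only, which may be technical.

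Each of these proteins folds its leucine-rich repeats into a curved solenoid, and most carry chondroitin, dermatan or keratan sulfate chains. They bind collagen fibrils and set their thickness and spacing, and they hold growth factors such as TGF-β in the matrix. In kidney, decorin and biglycan are made by interstitial fibroblasts and are studied in fibrosis. Vertebrate family members are sorted into classes by sequence. Among these 8, Dcn, Bgn and Aspn are class I, Lum, Fmod and Prelp class II, Ogn class III and Podn class V.

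Coculture with Th17 cells split the family. Dcn, the gene of decorin, rose 2.83-fold, whereas the other 7 members all fell. The decrease was 1.46-fold for Bgn and 2.37-fold for Lum, and it ranged from 3.58-fold for Podn to 19.0-fold for Aspn among the rest. At an adjusted p below 0.05 (quasi-likelihood test of edgeR, adjusted by Benjamini-Hochberg over all genes tested), 7 of 8 members were lower and 1 was higher. Of all 13088 genes, 20.0% were lower and 17.1% higher by the same rule. With the further demand of a fold change above 2, which the study's methods set, 6 members were lower and 1 was higher, against 7.78% and 3.87% of all genes. No member had overlapping CPM values between the groups, with 7 lower and 1 higher, whereas 26.1% of all genes were lower without overlap and 24.3% higher. The median log2 fold change of the members was −2.42, and that of all genes tested was 0.00. Over the 6 members with at least 10 counts in every library the median was −1.53. Ranked among all genes from the lowest log2 fold change, Aspn stood at place 73, Fmod at 104, Ogn at 125 and Prelp at 185, while Dcn stood at place 269 from the highest. Aspn and Fmod had fewer than 10 counts in each cocultured library and passed the filter on low counts only through the lone libraries. Their low places are therefore partly set by that filter and are descriptions only. In bulk RNA, fewer cells that express a gene and less of its RNA per cell cannot be told apart.

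**Figure D1:**
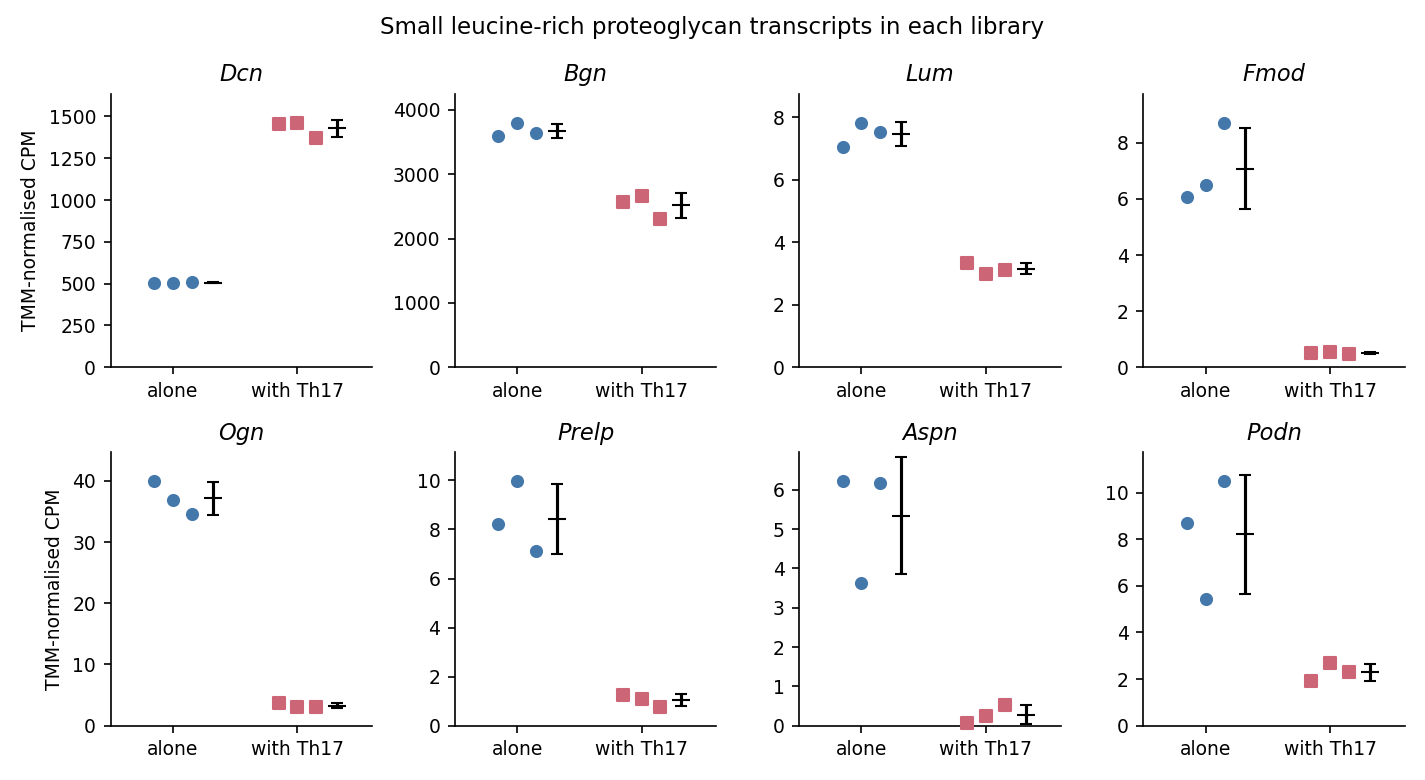
TMM-normalised counts per 1e6 (CPM) of the 8 members in each library of fibroblasts alone (circles) and with Th17 cells (squares), each panel with its own linear axis from 0, and bars for the mean ± SD of 3 libraries. The squares lie above the circles for Dcn and below them for the other 7 members, with no overlap in any panel.

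Other measures of the cultures moved alongside. Library totals lay between 12050529 and 13209581 counts, and 3 counts corresponded to 0.223 to 0.254 CPM, which here means counts per 1e6 of a library total corrected by the trimmed mean of M values (TMM). Fibroblast markers were abundant in both groups, with a summed level of 35582 to 37448 CPM alone and 14603 to 16467 CPM with Th17 cells, and 9 of 11 tested markers were lower. Most of this sum and of its fall was collagen, which is also listed among the binding partners below. Mean CPM went from 15087 to 6235 for Col1a1, from 12474 to 4626 for Col1a2 and from 4368 to 962 for Col3a1. The other tested markers ranged in log2 fold change from −4.10 (Tcf21, SE 0.531) to 0.32 (S100a4, adjusted p = 0.319 by edgeR). Tcf21 had only 27, 23 and 21 counts alone and 2, 2 and 0 with Th17 cells. Of 16 T cell markers 3 were tested and 2 were lower, Cd3d, Cd8a, Cd2, Cd5, Il17a and Il17f had 0 counts in all libraries, and the summed level was 8.55 to 10.8 CPM alone and 4.80 to 5.58 CPM with Th17 cells. Macrophage markers summed to 58.1 to 61.6 CPM alone and 19.9 to 21.2 CPM with Th17 cells, with 4 of 5 tested markers lower of 12 listed, and Adgre1, which marks macrophages, had 71, 47 and 55 counts alone and 0 in each cocultured library. Epithelial markers summed to 22.2 to 23.8 CPM alone and 7.84 to 9.12 CPM with Th17 cells (2 of 4 tested lower of 10 listed, Umod and Slc34a1 at 0). Endothelial markers summed to 123 to 131 CPM alone and 273 to 309 CPM with Th17 cells (1 of 4 tested lower and 1 higher of 8 listed, Emcn at 0). Most of this sum was Flt1, the higher 1, with a mean of 117 CPM alone and 291 CPM with Th17 cells. Pecam1 had means of 1.24 and 1.32 CPM, and Kdr was the lower 1. The part of these cells in the lower levels of the 7 members was not tested.

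The windows upstream of the members' listed transcription starts show which letters these genes carry there. RefSeq sequences were at hand for 6 of the 8 members, on build GRCm38.p6, each covering the 250 bases before the start, 5′ to 3′ on the gene's strand. None was at hand for Dcn, the only member that rose, or for Lum, so these were not searched. They are shown for Aspn and Ogn, members of the chromosome 13 cluster that both fell, for Prelp and Fmod, members of the chromosome 1 cluster that also fell, and for Bgn, the member with the smallest decrease. Capitals mark matches to the motifs that were searched.
Aspn (chr13:49544193-49544442, + strand): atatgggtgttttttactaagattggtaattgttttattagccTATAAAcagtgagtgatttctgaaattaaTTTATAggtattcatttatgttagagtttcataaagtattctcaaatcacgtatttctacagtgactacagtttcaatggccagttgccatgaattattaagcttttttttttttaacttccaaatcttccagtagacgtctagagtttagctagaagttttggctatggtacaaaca
Ogn (chr13:49607765-49608014, + strand): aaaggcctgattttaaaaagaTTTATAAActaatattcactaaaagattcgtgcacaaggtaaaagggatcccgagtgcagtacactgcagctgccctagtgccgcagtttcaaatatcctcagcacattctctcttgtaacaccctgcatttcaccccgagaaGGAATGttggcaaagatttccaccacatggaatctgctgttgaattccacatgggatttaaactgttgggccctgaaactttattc
Prelp (chr1:133921402-133921651, − strand): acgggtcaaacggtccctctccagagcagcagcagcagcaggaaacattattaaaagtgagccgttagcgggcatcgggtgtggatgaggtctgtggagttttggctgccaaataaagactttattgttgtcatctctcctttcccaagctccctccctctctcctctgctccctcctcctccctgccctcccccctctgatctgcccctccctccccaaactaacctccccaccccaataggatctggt
Fmod (chr1:134037004-134037253, + strand): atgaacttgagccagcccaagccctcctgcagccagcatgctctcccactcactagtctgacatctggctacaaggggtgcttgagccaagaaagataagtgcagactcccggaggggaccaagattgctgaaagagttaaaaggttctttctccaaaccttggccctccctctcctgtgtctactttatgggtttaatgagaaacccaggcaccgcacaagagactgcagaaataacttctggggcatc
Bgn (chrX:73483351-73483600, + strand): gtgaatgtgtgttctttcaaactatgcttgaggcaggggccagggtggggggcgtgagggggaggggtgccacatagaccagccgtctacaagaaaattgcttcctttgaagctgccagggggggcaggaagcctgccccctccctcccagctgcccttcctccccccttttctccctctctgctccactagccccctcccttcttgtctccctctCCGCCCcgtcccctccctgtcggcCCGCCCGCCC

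Guanine and cytosine made up 30.0% of the Aspn window, 42.0% of that of Ogn, 55.6% of that of Prelp, 51.2% of that of Fmod and 64.4% of that of Bgn, against a median of 52.4% over 32851 RefSeq windows. On both strands, 7 motifs were searched. The Sp1 motif GGGCGG was found 3 times in Bgn on the reverse strand, as CCGCCC, within the last 34 bases before the start, and the last 2 of these overlap. Of all windows, 32.7% hold it. The TATA box letters TATAAA, present in 12.4% of windows, were found in Aspn and Ogn, in each on both strands. They lay 207 to 202 and 178 to 173 bases upstream in Aspn, and 229 to 224 and 227 to 222 bases upstream, overlapping each other, in Ogn. Ogn also held the TEAD motif GGAATG (12.6% of windows) 86 to 81 bases upstream. The distances in Ogn are counted from the RefSeq start at 49608015, which lies before the gene start of 49608071 in the deposited table. Fmod and Prelp held none of the 7. The remaining searches were for the AP-1 motif TGANTCA (6.7% of windows), the STAT motif TTCNNNGAA (7.0%), the IRF motif GAAANNGAA (7.1%) and the NF-kB motif GGANTTTCC (1.1%). These letters were in none of the windows of the 6 members searched, which leave out Dcn and Lum. Podn has 2 listed starts. The window of the first held GGGCGG at 202 to 197 and 70 to 65 bases upstream, and the other held no match. A match in these letters is a description and not a measured binding site.

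Among the class I members, Dcn and Bgn were the most abundant and moved apart. Decorin carries a single chondroitin or dermatan sulfate chain and binds type I collagen and TGF-β. Dcn (ENSMUSG00000019929, chromosome 10, 97479500 to 97518162, + strand, GRCm38) had 6495, 6351 and 6006 counts in the lone libraries and 19533, 18593 and 18002 in the cocultured ones. The lone libraries were nearly alike and each cocultured library held about the same higher count. In TMM-normalised CPM this was 505 ± 3.06 alone and 1429 ± 50.4 with Th17 cells (SD, n = 3 each), a log2 fold change of 1.50 (adjusted p = 8.74e-08 by edgeR, SE 0.053).

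Biglycan, whose released form engages Toll-like receptors 2 and 4, is the closest relative of decorin and usually carries a pair of chains. Bgn (ENSMUSG00000031375, chromosome X, 73483602 to 73495933, + strand) had 46186, 48060 and 43072 counts alone and 34621, 33868 and 30252 counts with Th17 cells. It was the most counted member in all 6 libraries, and the cocultured libraries lay below the lone ones. The level went from 3677 ± 109.9 to 2514 ± 187.5 CPM (SD, n = 3 each), a log2 fold change of −0.55 (adjusted p = 0.000167 by edgeR, SE 0.064), under the fold limit of 2.

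Asporin is a class I relative that lacks the usual chain attachment site and binds collagen and TGF-β. Aspn (ENSMUSG00000021388, chromosome 13, 49544443 to 49567557, + strand) had 80, 46 and 73 counts alone and 1, 3 and 7 counts with Th17 cells. Lone replicate 2 was the lowest of its group and cocultured replicate 3 the highest of its own, and the groups stayed well apart. The log2 fold change was −4.21 (adjusted p = 0.000108 by edgeR, SE 0.459), the lowest of the family and the one with the widest error. Without cocultured replicate 3 it was −5.04, and without cocultured replicate 1 it was −3.75.

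All 3 class II members fell. Lumican, a keratan sulfate proteoglycan best known from the cornea, limits fibril thickness. Lum (ENSMUSG00000036446, chromosome 10, 97565501 to 97572703, + strand) had 91, 99 and 89 counts alone and 45, 38 and 41 with Th17 cells. The libraries of each group were close together. The level went from 7.48 ± 0.383 to 3.15 ± 0.183 CPM (SD, n = 3 each), a log2 fold change of −1.24 (adjusted p = 0.000268 by edgeR, SE 0.156).

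Fibromodulin shares a collagen site with lumican and guides the cross-linking of fibrils. Fmod (ENSMUSG00000041559, chromosome 1, 134037254 to 134048277, + strand) had 78, 82 and 103 counts alone and 7, 7 and 6 with Th17 cells. Lone replicate 3 was somewhat higher than the others, and each cocultured library held fewer than 10 counts. The log2 fold change was −3.77 (adjusted p = 6.16e-06 by edgeR, SE 0.267).

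Prelp encodes a protein whose basic end binds heparan sulfate and which links basement membranes to collagen. Prelp (ENSMUSG00000041577, chromosome 1, 133910304 to 133921414, − strand) had 106, 126 and 84 counts alone and 17, 14 and 10 with Th17 cells. Its level fell in every cocultured library, from 8.44 ± 1.44 to 1.04 ± 0.257 CPM (SD, n = 3 each), a log2 fold change of −3.0 (adjusted p = 1.45e-05 by edgeR, SE 0.242).

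Osteoglycin, also called mimecan, is the class III member and influences collagen fibril growth. Ogn (ENSMUSG00000021390, chromosome 13, 49608071 to 49624500, + strand) had 514, 467 and 408 counts alone and 50, 38 and 40 counts with Th17 cells. Alone it was the third most abundant member, and in coculture its 3 libraries were close to those of Lum. The level went from 37.1 ± 2.71 to 3.25 ± 0.408 CPM (SD, n = 3 each), a log2 fold change of −3.51 (adjusted p = 1.19e-07 by edgeR, SE 0.130). In deposited FPKM it moved from place 2840 to place 10021 among the genes tested, the largest drop in rank of a member.

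Podocan, the class V member, was first described in kidney glomeruli. Podn (ENSMUSG00000028600, chromosome 4, 108014791 to 108096445, − strand) had 112, 69 and 124 counts alone and 26, 34 and 30 counts with Th17 cells. Its lone libraries were the most scattered of the family relative to their mean, with a coefficient of variation of 31.1%, and lone replicate 2 was the lowest of them. The log2 fold change was −1.83 (adjusted p = 0.000679 by edgeR, SE 0.270).

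**Figure D2:**
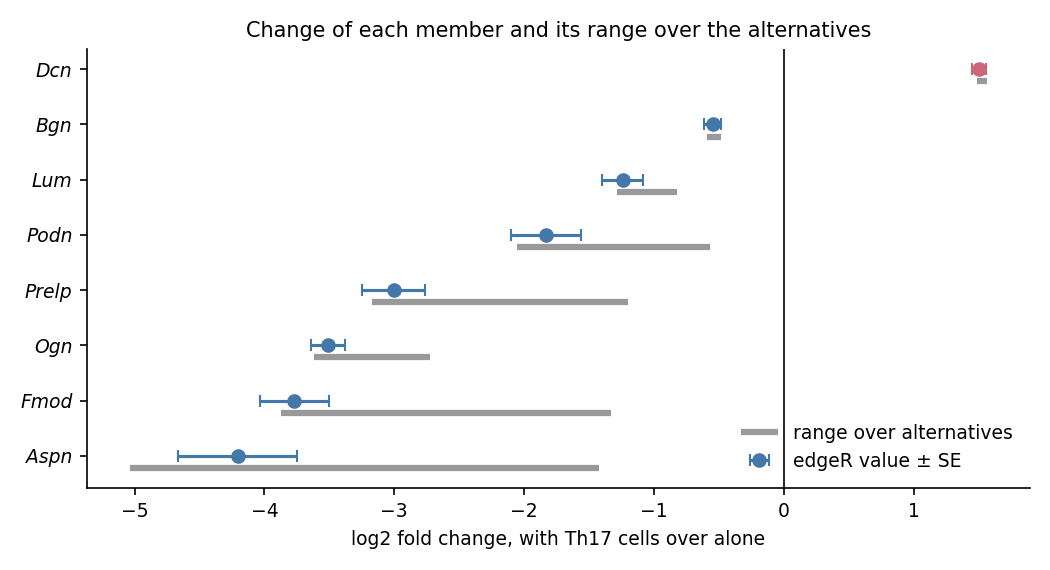
Log2 fold change (Th17 coculture over alone) of each member by edgeR (points, bars ± SE) with the range over the other normalisations, filters, tests and left-out libraries (grey lines). Dcn (red) stays above 0, with values between 1.48 and 1.56, and the other 7 (blue) stay below 0, with the widest range, −5.04 to −1.42, for Aspn.

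Some of these genes overlap others. Ogn and Aspn both lie within the span of Cenpp, a centromere gene on the opposite strand with 65, 70 and 58 counts alone and 26, 19 and 27 with Th17 cells. The further family genes Ecm2 and Omd also overlap Cenpp on the opposite strand. Since it was not stated whether counting used strand, fragments of Cenpp and of these genes cannot be told apart where their exons meet. Podn overlaps Scp2 on the same strand, which had 665, 756 and 578 counts alone and 495, 547 and 569 with Th17 cells. Even counting by strand could not separate fragments of Podn and Scp2 where their exons meet. On its − strand, the deposited span of Podn begins at 108096445, well before the RefSeq starts at 108031954 and 108030986. Prelp overlaps Gm15851 on the opposite strand, which had 0 counts throughout. Dcn, Bgn, Lum and Fmod overlap no annotated gene. Between the longest coding transcripts of the members the longest identical stretch was 50 bases, an AC repeat shared by Bgn and Podn, and it was 17 bases for Dcn and Bgn.

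Per unit of gene length, Dcn and Bgn made up nearly all of the family's RNA, and their balance shifted. The deposited FPKM values (fragments per kilobase of gene and 1e6 fragments) of Dcn were 235.9, 235.3 and 239.2 alone and 712.6, 711.6 and 675.9 with Th17 cells. Those of Bgn were 361.6, 383.8 and 369.6 alone and 272.2, 279.4 and 244.8 with Th17 cells. On this scale Bgn was above Dcn in each lone library and below it in each cocultured library. Of the summed FPKM of the 8 members, Dcn held 37.4% ± 0.709 alone and 72.3% ± 0.800 with Th17 cells (SD, n = 3 each), Bgn 58.7% ± 0.869 and 27.4% ± 0.816, and Ogn 2.26% ± 0.182 and 0.135% ± 0.016.

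The order of Dcn and Bgn depends on the gene length. The deposited FPKM values imply a length of 9670 bases for Bgn, whose longest coding transcript has 2419 bases, and of 2084 bases for Dcn, whose longest coding transcript has 1758. When counts were divided by the longest coding transcript instead, Bgn stayed above Dcn in all 6 libraries, with 1088, 1117 and 978.5 fragments per kilobase and 1e6 fragments against 844.7, 843.6 and 801.2 for Dcn in coculture. Dcn then held 15.7% ± 0.426 of the family alone and 43.8% ± 1.0 with Th17 cells. Gene length cancels in the fold change of the ratio of Dcn to Bgn. In counts the ratio was 0.141, 0.132 and 0.139 alone and 0.564, 0.549 and 0.595 with Th17 cells, 4.14-fold higher. With Dcn higher and Bgn lower in every cocultured library the groups could not overlap, so no p-value is given.

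The summed level of the family was likewise sensitive to length. In deposited FPKM it was 622.8, 642.9 and 633 alone and 988.6, 994.4 and 924.2 with Th17 cells. This is a ratio of 1.53 (exact permutation test, two-sided, p = 0.1, the smallest that 3 against 3 libraries allow). Per longest coding transcript it was 1752, 1838 and 1788 alone and 1937, 1964 and 1784 with Th17 cells, a ratio of 1.06 with overlapping groups (exact permutation p = 0.3). In summed CPM, which is not divided by length, the direction was the opposite, with 4168, 4372 and 4228 alone and 4041, 4135 and 3684 with Th17 cells, a ratio of 0.929 (exact permutation p = 0.1). Without Dcn, the only member that rose, the summed FPKM had a ratio of 0.679. A lower sum there follows from the fall of every other member and is no separate result. Without Dcn and Bgn the summed FPKM of the other 6 members went from 24.4 ± 0.796 to 3.61 ± 0.197 (SD, n = 3 each). No library of one group reached the other, as must be where each of them fell without overlap. The members took 0.379% to 0.427% of all fragments over the 6 libraries.

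**Figure D3:**
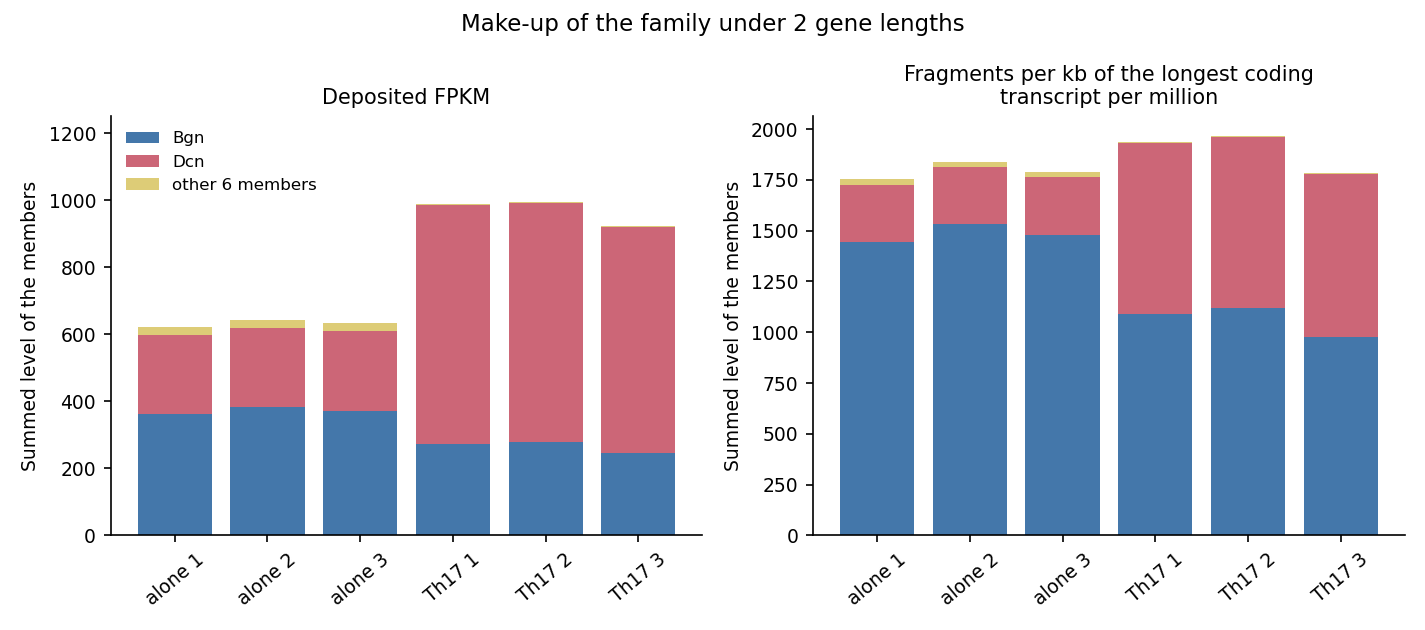
Summed level of the members in each library, stacked by Bgn, Dcn and the other 6, from deposited FPKM (left) and from fragments per kilobase of the longest coding transcript (right), both per 1e6 fragments. Dcn takes more of each bar with Th17 cells on both scales, but it exceeds Bgn only in deposited FPKM.

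Among the less abundant members, Ogn stood above Lum in lone fibroblasts on both scales, and in coculture the libraries of Ogn and Lum overlapped. In deposited FPKM of lone fibroblasts, Aspn (1.36 to 2.33), Fmod (1.62 to 2.34) and Prelp (1.57 to 2.19) overlapped one another. On this scale all of them lay below Lum (3.32 to 3.68) and above Podn (0.575 to 1.11). The place of Podn depended on length, since its FPKM implies 9261 bases and its longest coding transcript has 3170. Per longest coding transcript, lone Podn (1.68 to 3.25) overlapped Lum (2.81 to 3.12), Prelp, Aspn and Fmod. In coculture Fmod (0.129 to 0.153 FPKM) and Aspn (0.029 to 0.210 FPKM) were lowest, and their libraries overlapped.

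The members sit in chromosomal clusters with other family genes, and neighbours did not always move alike. On chromosome 10 Dcn is followed by Lum after 47.3 kb, then by Kera and Epyc. Dcn rose and Lum fell, each without overlap, which fixes a higher count ratio of Dcn to Lum in coculture. It went from 71.4, 64.2 and 67.5 to 434, 489 and 439, 6.71-fold higher. Kera and Epyc, genes of the cornea and of cartilage, had 0 counts in all libraries. On chromosome 13 the order is Ecm2, Aspn, Omd and Ogn, with gaps of 11.7, 15.2 and 15.5 kb. Ecm2, Aspn and Ogn all fell, and Omd had 0, 0 and 6 counts alone and 1, 0 and 1 with Th17 cells. All of these overlap Cenpp, which also had fewer counts in coculture. On chromosome 1 Optc lies 2.3 kb from Prelp, and Fmod 116 kb further on. Prelp and Fmod fell, and the log2 fold change of Optc was −1.24 (adjusted p = 0.0711 by edgeR, SE 0.478). The ratio of Prelp to Fmod counts was 1.36, 1.54 and 0.816 alone and 2.43, 2 and 1.67 with Th17 cells (exact permutation p = 0.1), and the ratio of Ogn to Aspn overlapped between groups (exact permutation p = 0.3).

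**Figure D4:**
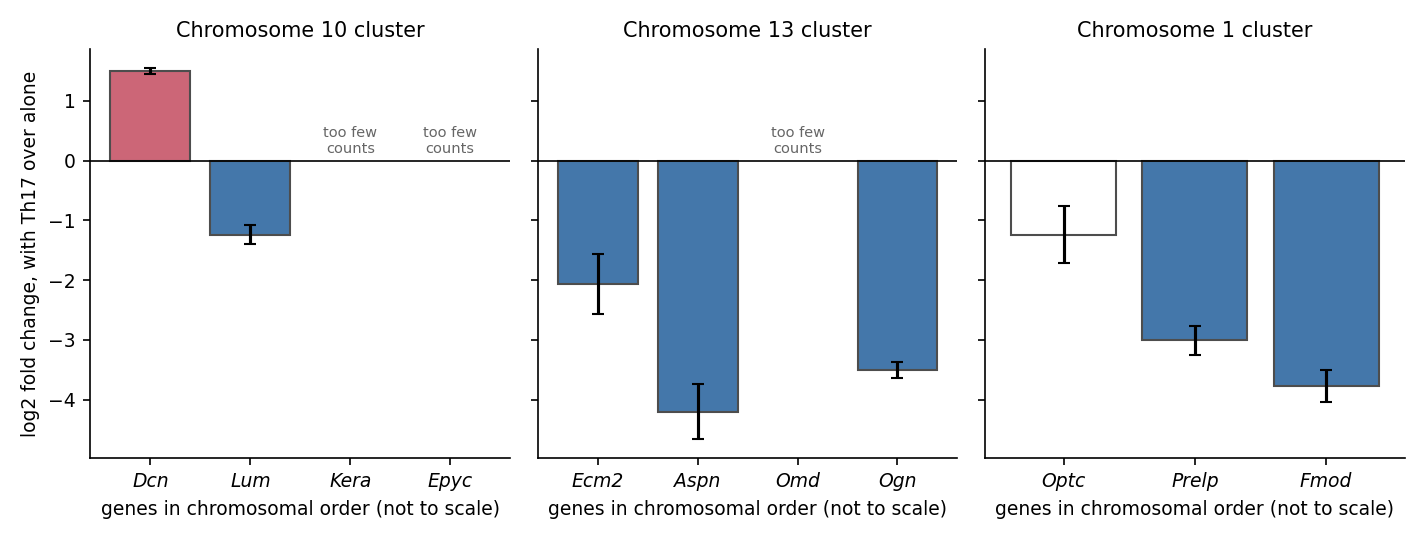
Log2 fold change with Th17 cells over alone (bars, ± SE by edgeR) of the family genes in each of 3 chromosomal clusters, in chromosomal order and not to scale, red for higher, blue for lower and open where adjusted p is not below 0.05. Dcn at 1.50 stands beside Lum at −1.24 on chromosome 10, while the tested genes of chromosomes 13 and 1 lie below 0.

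Of the 10 further family genes listed, 4 were tested, 1 was lower and 0 were higher, with a median log2 fold change of −0.65. For this list and those below, the shares over all 13088 genes tested were 20.0% lower and 17.1% higher. Ecm2, a matrix protein with leucine-rich repeats, had 11, 13 and 13 counts alone and 3, 1 and 5 with Th17 cells (log2 fold change −2.07, adjusted p = 0.0105 by edgeR, SE 0.501). Tsku, the gene of tsukushi, and Podnl1, the closest relative of Podn, had log2 fold changes of 0.00 (adjusted p = 0.986 by edgeR, SE 0.151) and −0.05 (adjusted p = 0.865 by edgeR, SE 0.187). Chad had 0 counts, and Chadl and Nyx had at most 6 and 1 counts in a library.

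The enzymes that build the sulfated chains of these proteins did not share a direction. Of 27 listed genes 23 were tested, 3 were lower and 6 were higher, with a median log2 fold change of 0.04. Csgalnact1, which starts chondroitin chains, rose most (log2 fold change 1.10, adjusted p = 0.00016 by edgeR, SE 0.128), and Xylt1, which attaches the first sugar, and Chst1, a keratan sulfotransferase, rose by 0.51 (SE 0.150) and 0.50 (SE 0.172). B4galt7, which adds the next sugar of the linker, rose by 0.50, and Dse, the epimerase that turns chondroitin into dermatan sulfate, by 0.31. The lower ones were Chsy3, a chondroitin synthase (−1.37, adjusted p = 0.000148 by edgeR, SE 0.157), Chst2 (−0.51) and Csgalnact2 (−0.30). Of the large proteoglycans, Vcan (versican) was tested and fell, from 526 ± 16.2 to 314 ± 9.06 CPM (SD, n = 3 each), while Acan, Bcan and Ncan had at most 5 counts in a library.

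The collagens that the family binds mostly fell. Of 11 listed, 10 were tested, 9 were lower and 0 higher, with a median log2 fold change of −1.26. Col14a1, a fibril-associated collagen that decorin binds, had 324, 281 and 302 counts alone and 21, 13 and 14 with Th17 cells (log2 fold change −4.31, adjusted p = 1.82e-07 by edgeR, SE 0.175). Col3a1 fell by 2.18 and Col6a3 by 1.54 on the log2 scale. Col12a1 had a log2 fold change of −0.11 (adjusted p = 0.298 by edgeR, SE 0.074). Dcn thus rose in the same comparison in which 9 of the 10 tested collagens fell.

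Proteases that process or cut these proteins moved in both directions. Of 10 listed 9 were tested, 6 were lower and 3 higher, with a median log2 fold change of −0.30. Mmp13, a collagenase that also cuts fibromodulin and biglycan, had 644, 565 and 584 counts alone and 4716, 4281 and 5787 with Th17 cells (log2 fold change 2.97, adjusted p = 1.29e-07 by edgeR, SE 0.112). Mmp9 rose by 0.96 and Tll1, a tolloid protease related to Bmp1, by 0.77. Adamts5 fell by 0.80, Mmp2 by 0.41 and Bmp1, which trims the propeptide of biglycan, by 0.37 on the log2 scale.

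Among 19 growth factors and receptors bound by family members, all tested, 8 were lower and 2 higher, with a median log2 fold change of 0.00. Bmp2 rose by 1.79 (adjusted p = 5.43e-05 by edgeR, SE 0.176) and Igf1r, a receptor that decorin binds, by 0.30. Kdr, a VEGF receptor, had 65, 74 and 68 counts alone and 2, 1 and 2 with Th17 cells. Per TMM-corrected library total this was a ratio of 43.6, alone over cocultured (95% exact interval 18.4 to 135.6, counting error only). Bmp4, with 103, 108 and 112 counts alone and 8, 2 and 4 with Th17 cells, fell by 4.57 (SE 0.311) on the log2 scale. Tgfb2 fell by 1.85 on that scale. Tlr2, a receptor of soluble biglycan, fell by 0.62, and Tlr4 had a log2 fold change of 0.38 (adjusted p = 0.322 by edgeR, SE 0.282).

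**Figure D5:**
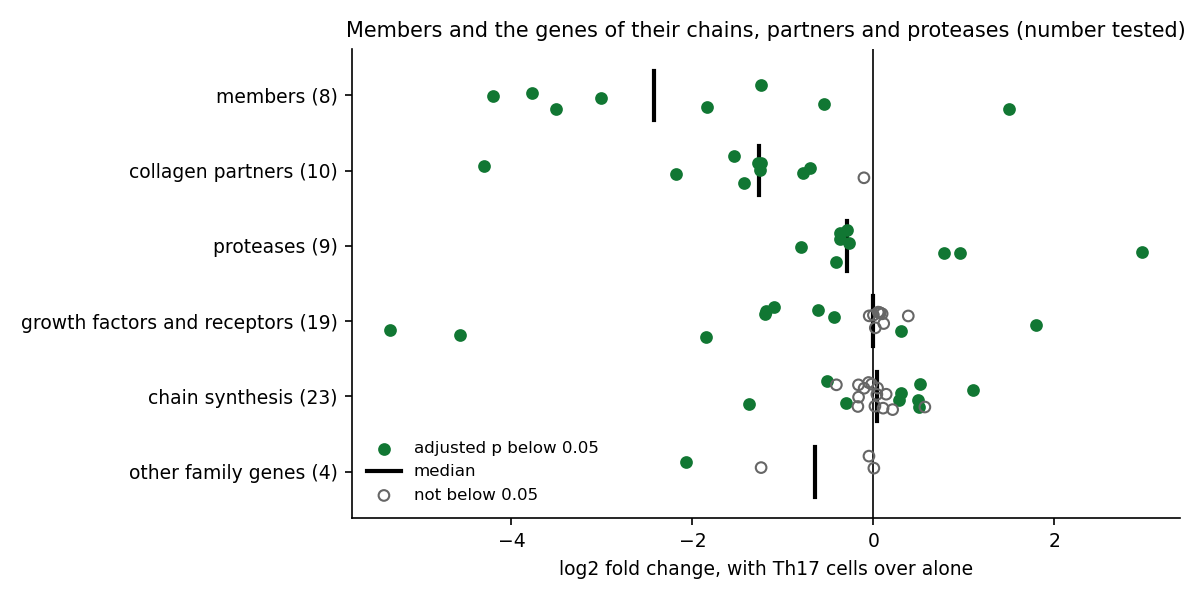
Log2 fold change (Th17 coculture over alone) of each tested gene in the family and in 5 related lists, filled where the edgeR adjusted p is below 0.05, with black lines for medians (vertical scatter within a row has no meaning). The medians are −2.42 for the members, −1.26 for the collagens and between −0.65 and 0.04 for the others.

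The genes whose profile over the 6 libraries was most like that of Dcn, by the distance between centred log2 CPM among 4121 genes with a mean of at least 50 CPM, were Lif (distance 0.143, log2 fold change 1.52), Fam20c (0.166, 1.47) and Gpnmb (0.174, 1.46). Among those most like Bgn were Eng (0.072, −0.53) and App (0.081, −0.51). These distances describe the libraries and are not a test.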

How the data were processed

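RNA-seq libraries (VAHTS kit, Illumina NovaSeq) were processed by the authors, who cleaned reads with Seqtk, mapped them with HISAT2 2.0.4 (mm10, per the submitters' processing notes) and quantified genes with StringTie 1.3.3b. They deposited raw fragment counts and FPKM values per gene and library. Use of strand and treatment of multiply aligned fragments were not given in the sources used here. The lengths implied by the deposited FPKM had a median ratio of 1.74 to the longest transcript over 12063 genes with several transcripts, and were below the longest coding transcript for Lum and Ogn.

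Groups came from sample titles. Counts were analysed with edgeR 4.0.16 in R 4.3.3 (filterByExpr with minimum count 10, TMM, glmQLFit, glmQLFTest, Benjamini-Hochberg over 13088 genes). The SE is the log2 fold change divided by the square root of F. Common dispersion was 0.0136. Alternatives were DESeq2 1.42.0, limma 3.58.1 on log2(FPKM + 1) and log2(FPKM + 0.1), other scalings and filters, glmTreat, a replicate block and leaving out each library, and, added after the data had been seen, division by the longest coding transcript. Tests were run on simulated counts first. Intervals and floors (3 counts) cover counting error only.

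Members and gene lists were chosen with earlier results of these data known. The text names all members, the further family genes, up to 3 highest and 3 lowest changes past the threshold per list, and the 3 genes most like Dcn and Bgn, of which 1 is not reported here. B4galt7, Dse, Col12a1, Tlr2, Tlr4, Kera, Omd, overlapping genes and list genes with few counts were added after their values were seen. Promoter windows are from RefSeq, gene positions from the deposited table, and transcript lengths and overlapping genes from GENCODE M21.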

Additional observations from a re-analysis of the deposited data

How the results depend on the processing

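All 118 recomputed fold changes of single members kept their direction and their side of the threshold, and the highest adjusted p was 0.00585 (Podn, limma on log2(FPKM + 1)). That setting gave −0.57 for Podn and −0.825 for Lum, both then under the fold limit of 2. It gave the smallest size for each member except Dcn and Bgn. Fmod and Aspn could not be tested with at least 10 counts in every library. The median log2 fold change of the members, −2.42, became −1.53 over the 6 members left by that filter, −1.01 with limma on log2(FPKM + 1) and −1.97 on log2(FPKM + 0.1), and ranged from −2.50 to −2.33 when each library was left out. The log2 ratio of the summed FPKM, 0.61, was 0.55 after TMM scaling and, added after the data had been seen, 0.080 per longest coding transcript. It reversed to −0.11 in summed CPM. Without Dcn, the member with the highest mean FPKM over the 6 libraries, it was −0.56, as follows from the fall of every other member. With glmTreat against a fold change of 2, 5 members were lower and 1 higher. Same-numbered libraries of the groups did not deviate together (correlations 0.022, −0.001 and −0.009). A replicate block gave 1.50 for Dcn and changed no call of a member.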
